A study of Rattus norvegicus with 2 samples.

Results

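The genes followed here, 10 in all, encode proteins of vascular junctions and leukocyte adhesion, and were read in the nucleus tractus solitarius (NTS) of female and male Wistar Kyoto (WKY) rats: F11r, Jam2, Jam3, Cldn5, Ocln, Tjp1, Pecam1, Esam, Icam1 and Vcam1. They were taken as every rat spot whose gene name in both array files is one of these symbols, which gave 11 probes and 38 spots, out of 30367 probes and 42877 spots. All 10 genes were well above background on both arrays, as were 15560 of the 18823 genes with a symbol. The NTS is the brainstem nucleus where baroreceptor and other visceral afferents first end. WKY is a normotensive laboratory strain, and all rats were 9 weeks old and untreated as far as the labels say. RNA of 5 females made 1 pool and RNA of 5 males the other, with 100 ng from each rat, and each pool went to 1 single-colour array. The stage of the oestrous cycle is not given in the sources used here.

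Endothelial cells of brain vessels are sealed to each other by tight junctions, in which claudins and occludin bridge the gap between membranes and the scaffold protein ZO-1, the product of Tjp1, ties them to actin. Junctional adhesion molecules, ESAM and PECAM-1 are immunoglobulin-like proteins of the cell border that help to form the junction and guide leukocytes across it. ICAM-1 and VCAM-1 stand on the luminal face and hold leukocyte integrins, and inflammatory cytokines raise both through the transcription factor NF-kB. F11r, which encodes junctional adhesion molecule A, has been studied in the NTS of the spontaneously hypertensive rat, the hypertensive strain related to WKY. Most of these genes are also active outside the endothelium: F11r in platelets and epithelia, Tjp1 in epithelia and astrocytes, Jam3 in oligodendrocytes, Pecam1 in leukocytes and platelets. In dissected tissue, fewer cells of a type and less RNA per cell cannot be told apart.

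The probes show which stretch of each messenger was measured, and 5 of them are given because the results below turn on them. Sequences are those of the array files, written 5′ to 3′ as listed there, with positions on the rat build rn4. The first Tjp1 probe and the F11r probe are shown by their first 30 bases, the others by all 60.
Tjp1, 10-spot probe, chr1:119685220-119685279, minus strand: tgatgtgttcaggacgcatgtacataatgc
Tjp1, 1-spot probe, chr1:119689604-119689663, minus strand: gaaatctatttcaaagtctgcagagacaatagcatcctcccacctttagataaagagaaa
F11r, chr13:87392812-87392871, plus strand: ggcctgagactagttacaaagttttcattc
Cldn5, chr11_random:1224740-1224799, minus strand: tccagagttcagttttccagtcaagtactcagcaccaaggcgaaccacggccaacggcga
Jam3, chr8:26698605-26699793, minus strand: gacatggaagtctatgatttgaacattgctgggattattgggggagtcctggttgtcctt
The 2 Tjp1 probes begin at positions 4973 and 6108 of the same transcript, so they read it at separate places. The Jam3 probe covers 1189 bases of rn4 with 60 bases of probe, so its genomic match is interrupted, as for a probe across an intron. The other members had 1 probe each. Those of Jam2 (chr11:24314961-24315020, plus strand), Ocln (chr2:31317108-31317167, minus strand), Pecam1 (chr10:96056220-96056278, minus strand) and Esam (chr8:38783957-38784016, plus strand) had 1 spot. Those of Icam1 (chr8:20051730-20051789, plus strand) and Vcam1 (chr2:212277695-212277754, minus strand) had 10 spots. No rn4 annotation was used here, so whether a probe lies in coding sequence or a UTR is not given.

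The comparison asked whether these genes differ between female and male NTS. With 1 array per sex no test could be made, and no difference has a replicate check. Every difference below is female minus male on the log2 scale, after each array was set to its 75th percentile, a processed signal of 3380 for the female against 3441 for the male array. None of the 10 genes was 2-fold or more higher in either pool, where 0.109% of all measured genes were 2-fold higher in female NTS and 0.424% in male NTS. None reached 1.5-fold either, a size passed by 0.893% and 1.57% of genes. The differences ran from -0.23 to 0.35 with a median of 0.051, against a median of -0.014 over all 15560 genes. Without the array rows that hold all spots of Pecam1 and Esam, described below, the median of the other 8 members was -0.031. The female pool was higher for 6 members and the male pool for 4, whereas over all genes the shares were 45.7% and 54.3%. These splits depend on the scaling: the female share of all genes was 56.2% with arrays set to their median, 32.3% with endothelial markers as the zero and 98.9% with the spike-in RNAs as the zero. Spike-in scaling moved the median of all genes to 0.66 and put all 10 members on the female side, so every direction below is relative to the 75th percentile of its array.

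Tjp1, Cldn5 and Ocln, the genes of ZO-1, a claudin and occludin, were higher in the female pool. Tjp1, the scaffold gene, gave the largest difference of the 10. Its 10-spot probe had processed signals with a lowest value of 3320, a median of 3500 and a highest value of 3686 on the female array, against 1456, 2885 and 3049 on the male array. Every female spot was brighter than every male spot. The spot at 1456 stood apart from the other 9 male spots, which lay between 2737 and 3049, and it carried no outlier flag. The probe's difference was 0.39 ± 0.34 (SD over 10 spots) with that spot and 0.28 ± 0.022 over the other 9. The 1-spot probe, at 251 in female NTS and 205 in male NTS, gave 0.32. Both probes of Tjp1 thus pointed to the female pool by similar amounts, and the gene value, the median of both, was 0.35, a 1.28-fold difference, or 0.30 without the low spot.

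Cldn5, the main claudin of brain endothelium, had a processed signal of 4537 in female NTS and 3993 in male NTS, a difference of 0.21. Ocln, the occludin gene, had 1670 in female NTS and 1505 in male NTS, a difference of 0.18. Each was read from 1 spot. Repeated spots of equally bright probes differed between the arrays with an SD of 0.069, so these differences were 3.03 and 2.55 such SDs. Among all genes 19.8% differed by at least as much as Cldn5, 25.5% as Ocln and 7.67% as Tjp1, so differences of this size were common on these arrays.

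**Figure D1:**
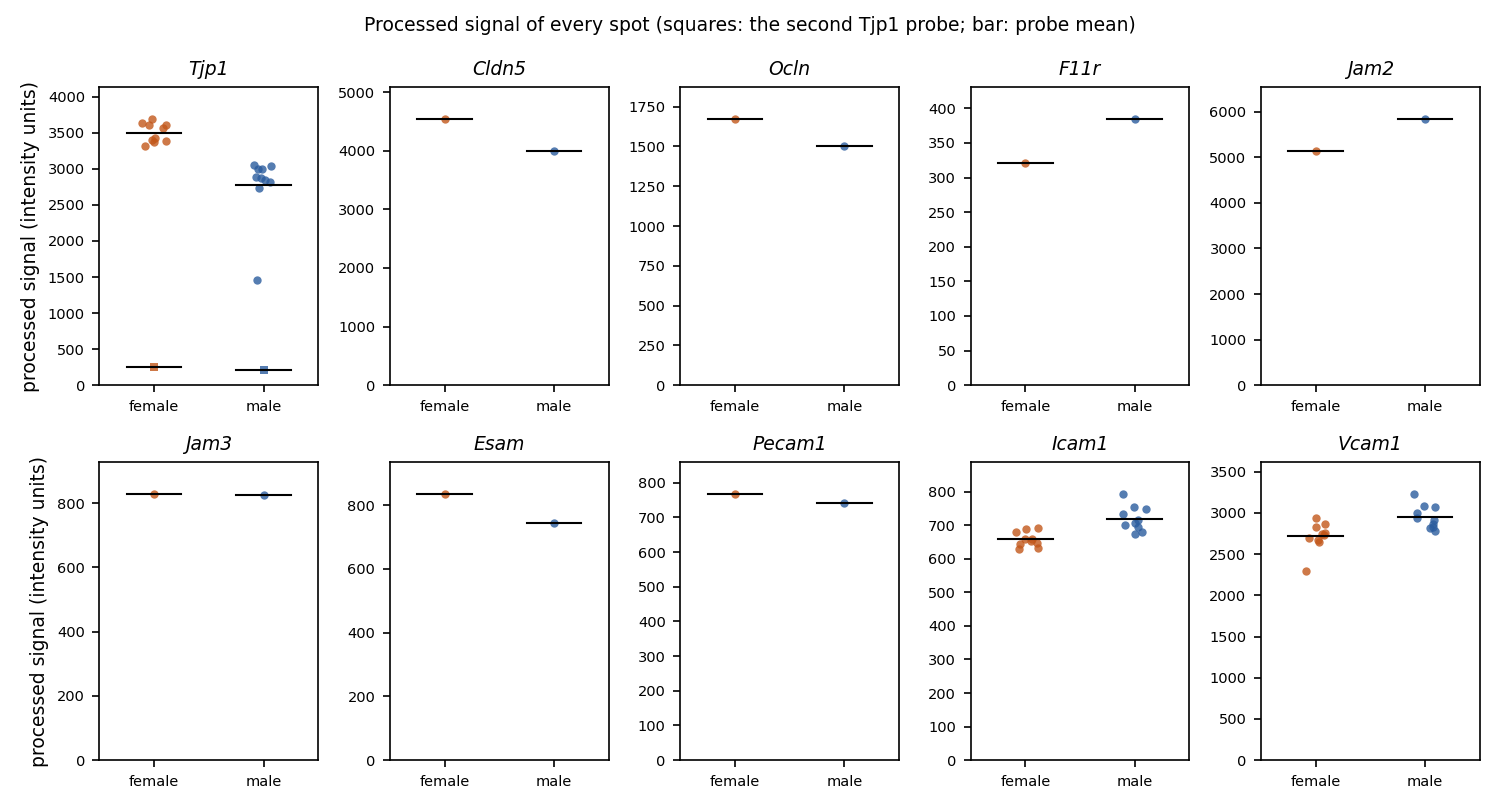
Processed signal (intensity units, axis from 0) of every spot of the 10 genes, female pool on the left and male pool on the right of each panel, with a bar at the mean of each probe. Each probe has its own brightness, so panels cannot be set against each other. The 10 spots of the brighter Tjp1 probe in the female pool, from 3320 to 3686, lie above its 10 male spots, of which 1 is at 1456.

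The junctional adhesion molecules did not differ in 1 direction. F11r, junctional adhesion molecule A, had a processed signal of 321 in female NTS and 384 in male NTS, a difference of -0.23 and the largest male excess among the 10. Jam2, junctional adhesion molecule B, had 5135 in female NTS and 5832 in male NTS, a difference of -0.16. Jam3, junctional adhesion molecule C, had 827 in female NTS and 824 in male NTS, a difference of 0.031, which became -0.016 with endothelial markers as the zero. Repeated spots of like brightness had an SD of 0.089 for F11r and 0.069 for Jam2, which put the F11r difference at -2.59 and the Jam2 difference at -2.28 such SDs, both on the male side. The Jam3 values lay within 1 such SD of each other. All 3 were read from single spots, so no spread of their own is known.

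The 2 other border proteins of the endothelium gave small female excesses. Esam, whose product sits at endothelial tight junctions and on platelets, had a processed signal of 834 in female NTS and 743 in male NTS, a difference of 0.19. Pecam1, which encodes CD31, had 766 in female NTS and 743 in male NTS, a difference of 0.071. At their brightness the SD of the difference between repeated spots was 0.089, so Pecam1 lay within it and Esam at 2.15 times it. The spots of both genes lay within the 4 of 20 bands of array rows where a dim spot was over 3 times as likely as in the middle band to be 2-fold brighter in male NTS, and neither has a spot elsewhere.

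The genes of the leukocyte ligands Icam1 and Vcam1 were each lower in the female pool by a small amount that most of their 10 spots shared. Icam1 spots ran from 629.9 through a median of 656 to 693 in female NTS, and from 675 through 711 to 792 in male NTS. The ranges overlapped, but at all 10 positions the male spot was the brighter. The difference was -0.10 ± 0.051 (SD over 10 spots). Vcam1 spots ran from 2295 through a median of 2741 to 2940 in female NTS, and from 2775 through 2931 to 3225 in male NTS. The male spot was brighter at 9 of 10 positions, with a difference of -0.095 ± 0.079 (SD over 10 spots). These spots share 1 hybridisation, so their agreement speaks for the array reading and not for the rats. Among all genes 46.9% differed by as much as Icam1 and 49.5% by as much as Vcam1.

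**Figure D2:**
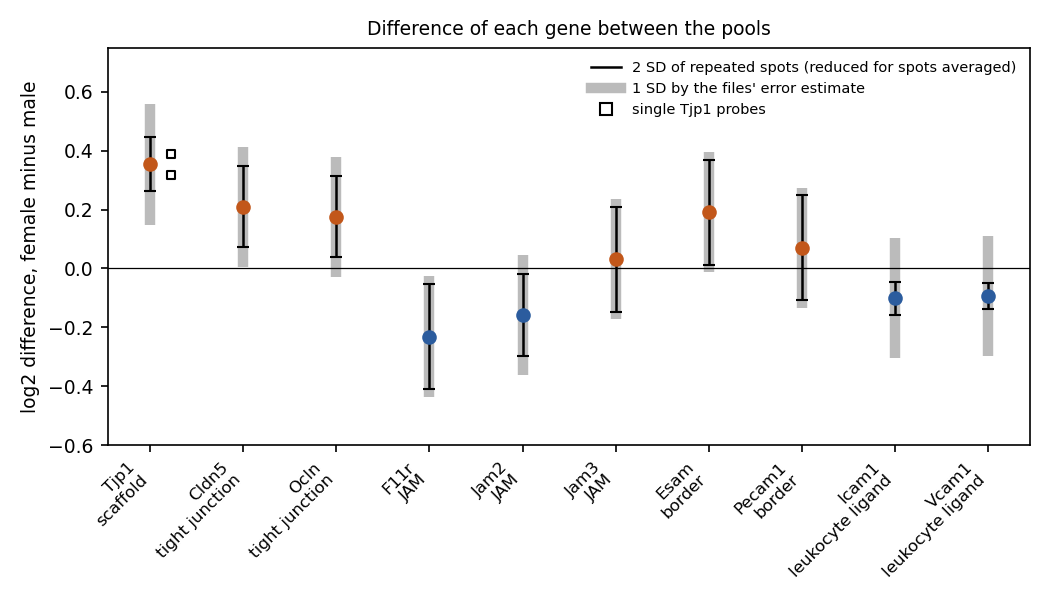
Log2 difference, female minus male, of the 10 genes ordered by role, with the zero line. Thin bars are 2 SD of repeated spots of like brightness, reduced for the number of spots averaged, thick grey bars 1 SD by the error estimate in the array files, and open squares the 2 probes of Tjp1. Tjp1 at 0.35 is the highest point and F11r at -0.23 the lowest.

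Measured against the error of repeated spots, reduced for the number of spots averaged, 4 members were higher in the female pool by over 2 SDs: Tjp1, Cldn5, Ocln and Esam. In all genes 9.66% passed that mark in this direction. The male pool was higher by over 2 SDs for 4 members, F11r, Jam2, Icam1 and Vcam1, against 14.9% of all genes. At 3 SDs, 2 members remained on the female side (Tjp1 and Cldn5), where 4.11% of all genes did, and 2 on the male side (Icam1 and Vcam1), where 7.49% did. Averaging 10 spots makes the mark easier to pass, so the background was also taken over like genes. Of 7 members read from 1 spot, 3 passed towards the female pool and 2 towards the male pool, against 8.74% and 15.0% of single-spot genes in their 2 brightness classes. Of the 3 members with a 10-spot probe, 1 and 2 passed, against 25.9% and 26.6% of such genes. The members were chosen with earlier results of these arrays known, and spot error leaves out labelling and the differences between rats. The array files carry their own error estimate for each spot, which amounts to an SD of about 0.20 for the difference of each member. Unlike the SDs of repeated spots, those SDs were not reduced for the number of spots averaged. By 2 of them no member passed in either direction, against 1.21% and 2.74% of all genes, and Tjp1 came nearest at 1.73 SDs.

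**Figure D3:**
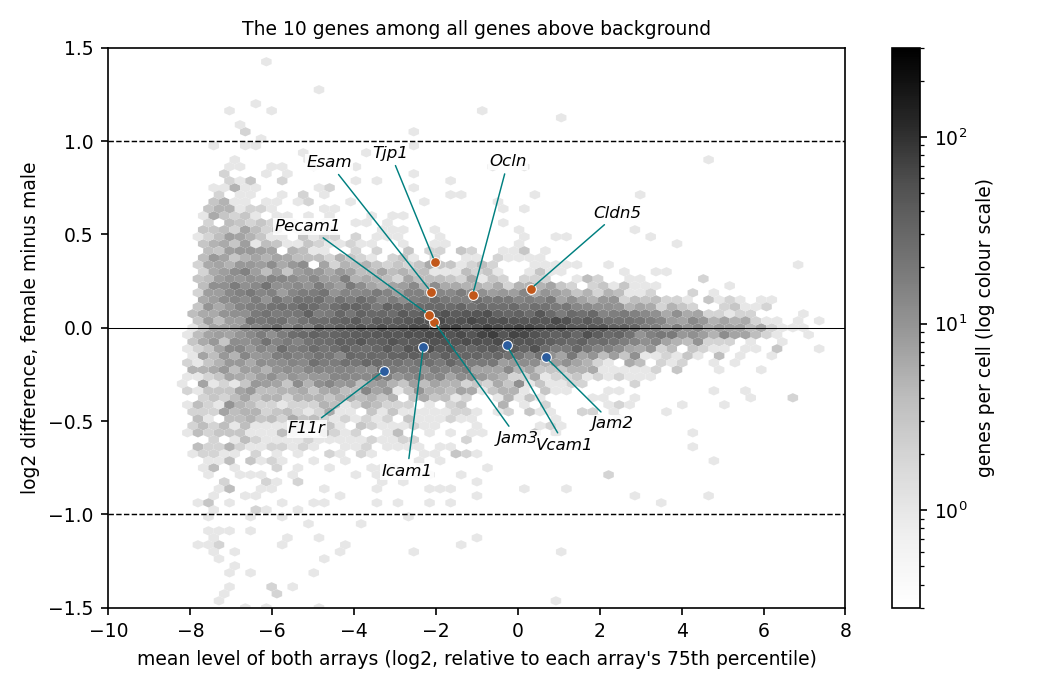
Log2 difference, female minus male, of all measured genes against their mean level on both arrays (log2, relative to the 75th percentile), in grey on a log colour scale, with the 10 genes as points. Dashed lines mark 2-fold. The axis leaves out the 28 genes whose difference exceeds 1.5 in size. All 10 genes lie well inside the 2-fold lines.

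Other parts of the junction were read from lists of related genes. Of 23 measured tight junction partners, 8 were higher in female NTS and 15 in male NTS, with a median of -0.033. Ybx3, which encodes a nucleic acid binding partner of ZO-1, gave -0.25. The claudin gene Cldn3 gave 0.24 and Cgnl1, a relative of cingulin, -0.34, both within 2 SDs of spots at their low brightness. The only Cldn3 spot lay within the row bands noted above. Of this list 3 genes passed 2 spot SDs towards the female pool and 4 towards the male pool, against 9.66% and 14.9% of all genes. The excess of Tjp1, Cldn5 and Ocln in the female pool was not seen across this list.

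The list of the adherens junction and the endothelial border had 4 of 14 genes higher in female NTS and 10 in male NTS, with a median of -0.053. Of this list 1 gene passed 2 spot SDs towards the female pool and 3 towards the male pool, against 9.66% and 14.9% of all genes. Nectin2, a nectin of adherens junctions, gave -0.19 and Cd99, a border protein that leukocytes bind, -0.16. Cdh2, N-cadherin, gave 0.14 over 10 spots. Cdh5, VE-cadherin, which is the defining cadherin of endothelium, had a processed signal of 345 in female NTS and 343 in male NTS, a difference of 0.034, and was chosen after its value was seen.

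A list of leukocyte adhesion partners held integrin subunits and selectins, with other surface proteins and the actin linkers Ezr and Msn. Not all of these bind ICAM-1 or VCAM-1. The list had 6 of 13 measured genes higher in female NTS and 7 in male NTS, with a median of -0.058. Of this list 0 genes passed 2 spot SDs towards the female pool and 6 towards the male pool, against 9.66% and 14.9% of all genes. Ezr and Msn were among these 6. The median was 0.0053 when genes above background on either array, or all genes, were counted. Selp, P-selectin, gave -1.08 from 1 dim spot at 24.5 in female NTS and 52.6 in male NTS, and was the only gene of the 4 related lists past 2-fold. Ezr, ezrin, a linker of membrane proteins to actin, gave -0.49 over 10 spots, and Itgb7, the integrin beta 7 subunit, 0.41 with an SD of 0.27. Itgb2, the shared subunit of the leukocyte integrins that bind ICAM-1, gave -0.058 over 10 spots. Itga4, whose product binds VCAM-1 with integrin beta 1, gave -0.084. Itgb1, the gene of integrin beta 1, gave -0.18, and the integrin subunit gene Itgam gave -0.14. Itgb2, Itgb1 and Itgam were also among the 6 past 2 spot SDs towards the male pool, and Itga4 was not. Itgb2, Itga4, Itgb1 and Itgam were chosen after their values were seen. Sele, Itgal, Itgb3 and Madcam1 were not well above background on both arrays.

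Genes that control Icam1 and Vcam1 in inflammation lay mostly on the male side, which turned with spike-in scaling: 3 of 19 were higher in female NTS and 16 in male NTS, with a median of -0.15. The cytokine gene Il1b gave -0.27 over 10 spots. A single spot at its brightness had an SD of 0.15, or 0.048 when reduced for 10 spots, so Il1b passed 2 spot SDs. Tnf gave -0.26 from 1 spot with an SD of 0.15, and did not pass. Ikbkg, the regulatory subunit of the kinase that frees NF-kB, gave -0.74 from 1 dim spot with an SD of 0.27. Of the 19 genes, 5 passed 2 spot SDs towards the male pool, where 14.9% of all genes did. None of the 3 female excesses passed it, where 9.66% of all genes did towards the female pool.

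NF-kB is known to act on the promoters of both ligand genes, and their upstream 250 bases are given here from RefSeq, build GRCr8, 5′ to 3′ on the strand of the gene, to show where such a pattern lies. The part of NF-kB in the Icam1 and Vcam1 values was not tested. Capitals mark each match to GGNNNTTCC or, on the other strand, GGAANNNCC, a simplified NF-kB-like pattern.
Icam1, chr8:27829595-27829844, plus strand: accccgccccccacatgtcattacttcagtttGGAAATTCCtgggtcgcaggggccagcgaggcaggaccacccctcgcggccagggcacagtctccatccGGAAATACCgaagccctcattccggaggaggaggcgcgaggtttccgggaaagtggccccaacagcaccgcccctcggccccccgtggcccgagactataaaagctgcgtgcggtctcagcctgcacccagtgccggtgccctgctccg
Vcam1, chr2:206742784-206743033, minus strand: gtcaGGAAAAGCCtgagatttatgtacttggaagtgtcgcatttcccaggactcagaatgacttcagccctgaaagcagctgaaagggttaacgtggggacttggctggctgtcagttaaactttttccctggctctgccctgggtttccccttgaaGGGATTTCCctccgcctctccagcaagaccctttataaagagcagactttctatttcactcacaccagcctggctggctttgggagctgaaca
The Icam1 matches begin 218 and 149 bases before the start of the gene, and the Vcam1 matches 246 and 93 bases before it. Of 33469 rat promoter windows of this length, 15.4% held the pattern. The table held 7 of the 10 members, and the pattern was present in 4 of them: Icam1, Vcam1, Jam2 and Tjp1. A match is a run of letters and no measure of binding.

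Markers of endothelium, the members left out, gave the tissue background. Of 26 such genes 24 were measured, 17 higher in female NTS and 7 in male NTS, with a median of 0.047. Their levels, each relative to the 75th percentile, summed to 13.8 in female NTS and 12.9 in male NTS, or 10.5 and 10.2 without Slc2a1, the brightest. Such sums add probes of unlike brightness and rest mostly on the brightest genes. Sox18, an endothelial transcription factor, gave 0.35 and Slc2a1, the glucose transporter of the barrier, 0.26 over 10 spots, while Cd34 gave -0.29 from a dim spot with an SD of 0.27. Of the endothelial genes, 5 passed 2 spot SDs towards the female pool and 0 towards the male pool, against 9.66% and 14.9% of all genes. Sox17 was not well above background on both arrays. Set against the endothelial median, Tjp1 was higher in the female pool by 0.31, Cldn5 by 0.16, Esam by 0.14 and Ocln by 0.13. F11r was at -0.28 on that scale, Jam2 at -0.20, Icam1 at -0.15 and Vcam1 at -0.14. With this zero Tjp1 and Cldn5 passed 2 spot SDs towards the female pool, where 5.46% of all genes did, and F11r, Jam2, Icam1 and Vcam1 towards the male pool, where 23.2% did. Several endothelial markers had all their spots in the row bands noted above, and without these bands the endothelial median was 0.096. Set against that larger value the female excesses would be smaller, and the members past 2 spot SDs were not counted there.

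Markers of blood leukocytes and red cells had higher levels in the male pool, though their medians turned with spike-in scaling. Of the blood leukocyte markers, 7 of 7 measured genes had the higher level in males, with a median of -0.65, and their levels summed to 0.323 in female NTS and 0.502 in male NTS. Ltf, a neutrophil granule gene, gave -2.14 from 1 dim spot at 17.8 in female NTS and 79.7 in male NTS, with an SD of 0.27. S100a8 gave -0.76, from 1 spot within the row bands noted above, and Np4 gave -0.76. The lymphocyte gene Cd79b gave -0.021 from 1 dim spot, with the same SD as Ltf. The lymphocyte genes Cd3e, Ms4a1 and Cd2 were not well above background on both arrays. Of the red cell markers, 6 of 6 measured genes were also higher in males, with a median of -0.53 and sums of 87.3 in female NTS and 108 in male NTS (2.21 and 3.27 without the 2 brightest genes), among them Slc4a1 at -0.85 and Ahsp at -0.81. Platelet markers had a median of -0.024 over 6 genes, with sums of 1.492 in female NTS and 1.498 in male NTS. Gp9 gave -0.16, Treml1 -0.16 and Ppbp 0.043, and none passed 2 spot SDs. The part of blood cells in the F11r, Icam1 and Vcam1 values was not tested.

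All 10 meningeal and fibroblast markers had the higher level in males, with a median of -0.32 and sums of 9.72 in female NTS and 15.3 in male NTS, or 4.79 and 6.06 without Col1a2. Col1a2 gave -0.90, Aldh1a2 -0.54 and Igfbp2 -0.43. Choroid plexus markers, from an epithelium with tight junctions of its own, had the higher level in males for 9 of 11 genes, with a median of -0.23 and sums of 13.97 in female NTS and 16.3 in male NTS, or 0.748 and 0.922 without the brightest gene. The claudin gene Cldn2 gave -1.84 from 1 dim spot at 39.3 in female NTS and 144 in male NTS, with an SD of 0.15. Lbp gave -0.91, also from 1 spot with that SD, and Aqp1 -0.61 over 10 spots. Microglia and macrophage markers had a median of -0.10, with 8 of 10 genes higher in the male pool, among them Cd68 at -0.63, Csf1r at -0.28 and C1qc at -0.22. Their part in the member values was not tested.

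Astrocyte markers had a median of -0.10 with 7 of 9 genes higher in the male pool, among them Gfap at -0.32 and Aqp4 at -0.26, against Gjb6 at 0.21. Oligodendrocyte markers had a median of 0.11 with 7 of 9 genes higher in the female pool, among them Mog at 0.47, Mobp at 0.36 (the median difference of its 3 probes, at median signals of 8470 in female NTS and 7356 in male NTS) and Mag at 0.27. Pericyte and smooth muscle markers had a median of -0.018 over 13 genes, with Mylk at -0.46, Myh11 at -0.32 and Notch3 at 0.21. Neuron markers had a median of -0.052 over 7 genes, with Snap25 at 0.24, Nefl at -0.16 and Nefm at -0.086. Genes of the dorsal hindbrain and NTS had a median of 0.018 over 6 genes, with Prlh at 0.62, Lmx1b at 0.23 and Tlx3 at -0.070. Without the row bands noted above the median of this list was -0.013. The only spots of Prlh, Nefl and Notch3 lay within these bands.

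**Figure D4:**
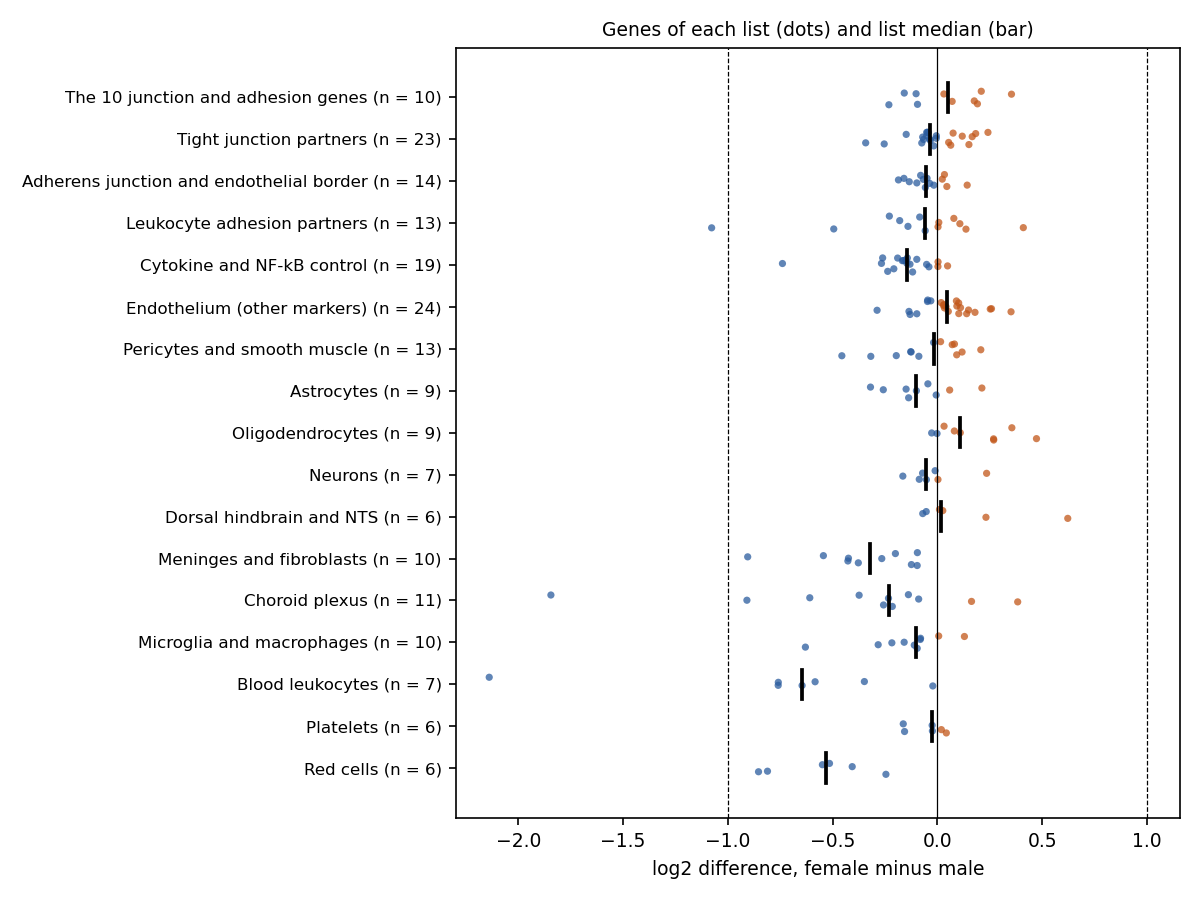
Log2 difference, female minus male, of each measured gene (dots) and the median (bar) of the 10 genes and of every related and marker list, with dashed lines at 2-fold. The 10 genes spread around zero between -0.23 and 0.35, endothelial markers have a median of 0.047, and blood leukocyte, red cell and meningeal genes lie on the male side without exception at the 75th-percentile scaling (their medians turn to the female side with spike-in scaling).

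On these arrays 87.9% of rat spots of the female pool and 85.5% of the male pool were well above background, and no spot was saturated. The sex labels were checked with X-linked genes known to escape X inactivation. Kdm5c was higher in the female pool by 0.57, Eif2s3 by 0.65 and Ddx3x by 0.39, each with an SD of 0.069. Of the 10 genes, Tjp1 had 1 male spot that differed from the rest, and the row bands noted above held all spots of Pecam1 and Esam, 2 of the 10 Icam1 spots and 1 of the 10 Vcam1 spots.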

How the data were processed

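Per the labels, pooled NTS RNA (150 ng per pool) was labelled with Cy3 and hybridised to single-colour Agilent arrays, which shared 1 slide per the file headers. The deposited intensity values are processed signals of Agilent Feature Extraction 10.7.3.1 per the file headers (9.1 per the submitters' processing notes), with background removed and a spatial trend taken out array by array, and with no scaling between arrays. The deposited value table holds the same intensity values times 1 factor per array. Here log2 processed signal was set to each array's 75th percentile over rat spots, 430 flagged spots were left out, spots of a probe were averaged, and a gene took the median level, and the median difference, of its probes well above background on both arrays. Technical SDs came from repeated spots in 4 brightness classes. Symbols came from RefSeq GRCr8 by accession for 18758 probes and by another accession for 1035, and from the files for 2871, while 7703 had none. The precision is limited by the number of arrays, 1 per group. The members and lists were chosen with earlier results of these data known. All 10 members were named, with, from each list, the 3 genes with the largest difference, except that some results are not reported here. Steps were tested on simulated data. Of the steps, normexp used R 4.3.3 with limma 3.58.1 and the rest Python 3.11.15. No test was made, and alternatives in scaling, background, filter, probe choice and row bands were tried.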

Additional observations from a re-analysis of the deposited data

How the results depend on the processing

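No paired analysis was possible because each group has 1 array. Leaving aside spike-in scaling, the sign of every member except Jam3 held under each alternative that gave a value (11 for Pecam1 and Esam, 12 for F11r, Jam2, Cldn5, Ocln, Icam1 and Vcam1, 13 for Tjp1). Jam3 ran from -0.016 to 0.066. Under these alternatives Tjp1 ran from 0.30 to 0.39, Cldn5 from 0.16 to 0.24 and F11r from -0.28 to -0.18. Scaling by 234 spike-in spots moved every gene by 0.67 towards the female pool, so that the median of all genes became 0.66. All members then lay on the female side, 10 by over 2 spot SDs and 0 on the male side, with a median of 0.72. Of the members, 1 (Tjp1) passed 2-fold towards the female pool, where 591 of all 15560 genes did. With this zero 98.9% of all genes lay on the female side, and their share past 2 spot SDs is not given here. The count of 10 therefore does not set the members apart from other genes. F11r became 0.44, Jam2 0.52, Icam1 0.57 and Vcam1 0.58, each still below the shift of all genes. The list medians became 0.64 for tight junction partners, 0.62 for adherens junction, 0.62 for leukocyte adhesion partners, 0.53 for cytokine and NF-kB control, 0.72 for endothelium, 0.66 for pericytes, 0.57 for astrocytes, 0.78 for oligodendrocytes, 0.62 for neurons, 0.69 for dorsal hindbrain, 0.35 for meninges, 0.44 for choroid plexus, 0.57 for microglia, 0.028 for blood leukocytes, 0.65 for platelets and 0.14 for red cells. Whether the spike-ins or the 75th percentile give the truer zero was not tested.

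Without the 4 row bands, which leave out Pecam1 and Esam, the median of the other 8 members was -0.031 and that of oligodendrocyte genes 0.19. With endothelial scaling 2 members passed 2 spot SDs towards the female pool and 4 towards the male pool, against 5.46% and 23.2% of all genes. At 3 spot SDs 2 passed in each direction, and by the error estimate of the files, chosen after seeing the data, 0 in each. Against 17 genes 2-fold higher in the female and 66 in the male pool, spike-in scaling gave 591 and 17, normexp 5 and 18, probes above background on either array 212 and 158, no background filter 436 and 275, omission of the row bands 15 and 39, and the brighter probes alone 4 and 12. Spike-in scaling aside, list medians changed sign for tight junction partners (up to 0.0017), leukocyte adhesion partners (up to 0.0053), pericytes (up to 0.043), platelets (up to 0.011) and dorsal hindbrain (down to -0.029). With 1 array per sex, neither spot error nor the files' error estimate covers the differences between rats, so no size of difference can be called detectable.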
